A study of Mus musculus with 24 samples.

Results

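The 10 genes described here are the transcription factor Nrf2, encoded by *Nfe2l2*, and 9 genes of the antioxidant defence that it is known to serve (*Nqo1*, *Hmox1*, *Gclc*, *Gclm*, *Txnrd1*, *Srxn1*, *Slc7a11*, *Gpx1* and *Gpx3*). They were chosen by name, each symbol matched exactly 1 row, and together they are 10 of the 54532 genes in the count table. All 10 passed the filter on low counts that left 22570 genes for testing. RNA-seq libraries were made from the whole kidneys of 24 C57BL/6 mice aged 18 days, 1 library per mouse. Every mouse carried the hypomorphic RC missense allele of *Pkd1*, the gene mutated in most human polycystic kidney disease, and a floxed copy of the gene. In RC/- mice (n = 5) a Cre recombinase driven in kidney tubules by the Ksp promoter deleted the floxed copy, and these kidneys are cystic. RC/+ mice (n = 3) had no Cre and served as noncystic controls, so that Cre and the cystic genotype cannot be told apart. In the D18 and D53 lines the miR-17 binding motif had been removed from the RC allele by CRISPR/Cas9, each line descending from 1 founder. They gave the groups RC/+ D18 (n = 3), RC/+ D53 (n = 3), RC/- D18 (n = 5) and RC/- D53 (n = 5).

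Nrf2 is a basic leucine zipper factor that is held low by Keap1, an adaptor which presents it to a Cul3 ubiquitin ligase. Electrophiles and oxidants modify Keap1, after which Nrf2 accumulates, pairs with small Maf proteins and binds antioxidant response elements in its target genes. Much of this control acts on the Nrf2 protein, which RNA-seq does not measure. In the kidney the proximal tubule, rich in mitochondria and exposed to filtered toxins, is a major site of glutathione turnover and of peroxidase synthesis.

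Library totals ranged from 20.4 to 30.8 M counts. *Pkd1* itself lay between 38.4 and 71.4 counts-per-million units (CPM) over all 24 libraries, with RC/- at 52.0 to 65.2 CPM (n = 5) and RC/+ at 49.9 to 51.5 CPM (n = 3). The edited cystic kidneys overlapped with RC/-, at 53.8 to 71.4 CPM in RC/- D18 and 38.4 to 63.5 CPM in RC/- D53 (n = 5 in each). The count adds up both copies of the gene, so it is no check of the deletion of the floxed copy or of the RC allele alone. RC/- replicate 16 held transcripts of the adrenal cortex, with *Star*, *Cyp11a1* and *Cyp11b1* summing to 1183 CPM against 3.23 to 10.6 CPM in the other 23 libraries. Libraries 20 to 27, which are every RC/- D53 library and 3 of the 5 RC/- D18 libraries, held skeletal muscle transcripts (6 markers summing to 147 to 194 CPM, against 5.27 to 9.36 CPM in the other 16). The hepatocyte transcript *Alb* was at 9.11 to 88.3 CPM in RC/- replicates 13, 16 and 17 and RC/- D53 replicates 25 and 27, and at 0.612 to 3.11 CPM in the other 19 libraries. Summed over 4 hepatocyte markers with *Alb* among them, replicates 13, 25 and 27 held 164, 184 and 152 CPM. Replicates 16 and 17, at 66.8 and 44.1 CPM, lay within the 31.7 to 110 CPM of the other 19. Macrophage markers were higher in RC/- than in RC/+ kidneys for 8 of 8 genes (summed level 439 to 781 CPM against 222 to 244 CPM), and proximal tubule markers were lower for 11 of 11 (2466 to 5639 CPM against 10008 to 10837 CPM). No marker of either list was at 0 in any group. In such whole-kidney libraries fewer cells of a type and less RNA per cell cannot be told apart.

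The target sequence of Nrf2 is commonly written TGACNNNGC. To show where these letters stand near the members, 300-base RefSeq promoter windows (250 bases before to 50 bases after each annotated start, GRCm38.p6) were searched on both strands. Windows were listed for 8 of the 10 genes, *Hmox1* and *Gclc* being the exceptions, and 4 of those 8 held the letters, while 14% of 27025 gene symbols held them in any window. The 4 matches are printed with 10 bases on each side, 5′ to 3′ on the gene's own strand, with the matching letters in capitals.
Nfe2l2: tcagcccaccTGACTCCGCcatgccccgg
Gclm: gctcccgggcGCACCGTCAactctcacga
Txnrd1: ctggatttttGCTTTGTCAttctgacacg
Srxn1: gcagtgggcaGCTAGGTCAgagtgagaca

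The *Nfe2l2* window lies at chr2:75704885-75704913 on the minus strand, its match being 236 bases before the start on the gene's strand. The *Gclm* window lies at chr3:122245413-122245441, with the match in reverse orientation 130 bases before the start. *Txnrd1* has 3 listed starts, and 1 of them had a match, at chr10:82859104-82859132, reversed and 88 bases before the start. In *Srxn1* the match lay 32 bases after the start, reversed, at chr2:152105542-152105570. No match was present in the windows of *Nqo1*, *Slc7a11*, *Gpx1* and *Gpx3*, which says only that these letters are absent from those 300 bases. The 4 genes with a match include 3 that were higher and 1 that was lower in cystic kidneys, as given next.

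In cystic RC/- kidneys the antioxidant genes did not move as a block. Of the 10, 4 were higher than in RC/+ kidneys (*Nfe2l2*, *Hmox1*, *Txnrd1*, *Srxn1*), 3 were lower (*Nqo1*, *Gclm*, *Gpx3*) and 3 did not pass the test (*Gclc*, *Slc7a11*, *Gpx1*), at an adjusted p below 0.05 over all 22570 genes. Over all genes tested, 25.5% were called higher and 12.2% lower in the same comparison. The values of the groups did not overlap for the 7 called genes and overlapped for the other 3, and of all genes tested 37.6% did not overlap. The median log2 fold change of the 10 was -0.13, and that of all genes was 0.14. With TMM scaling, a trimmed-mean correction for library composition that brings the median of all genes to 0.01, 2 members were higher (*Nfe2l2*, *Hmox1*) and 4 lower (*Nqo1*, *Gclm*, *Gpx1*, *Gpx3*), while the share of calls that were higher went from 67.7% to 49.7% over all genes (5753 higher and 2744 lower against 3844 and 3896).

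**Figure D1:**
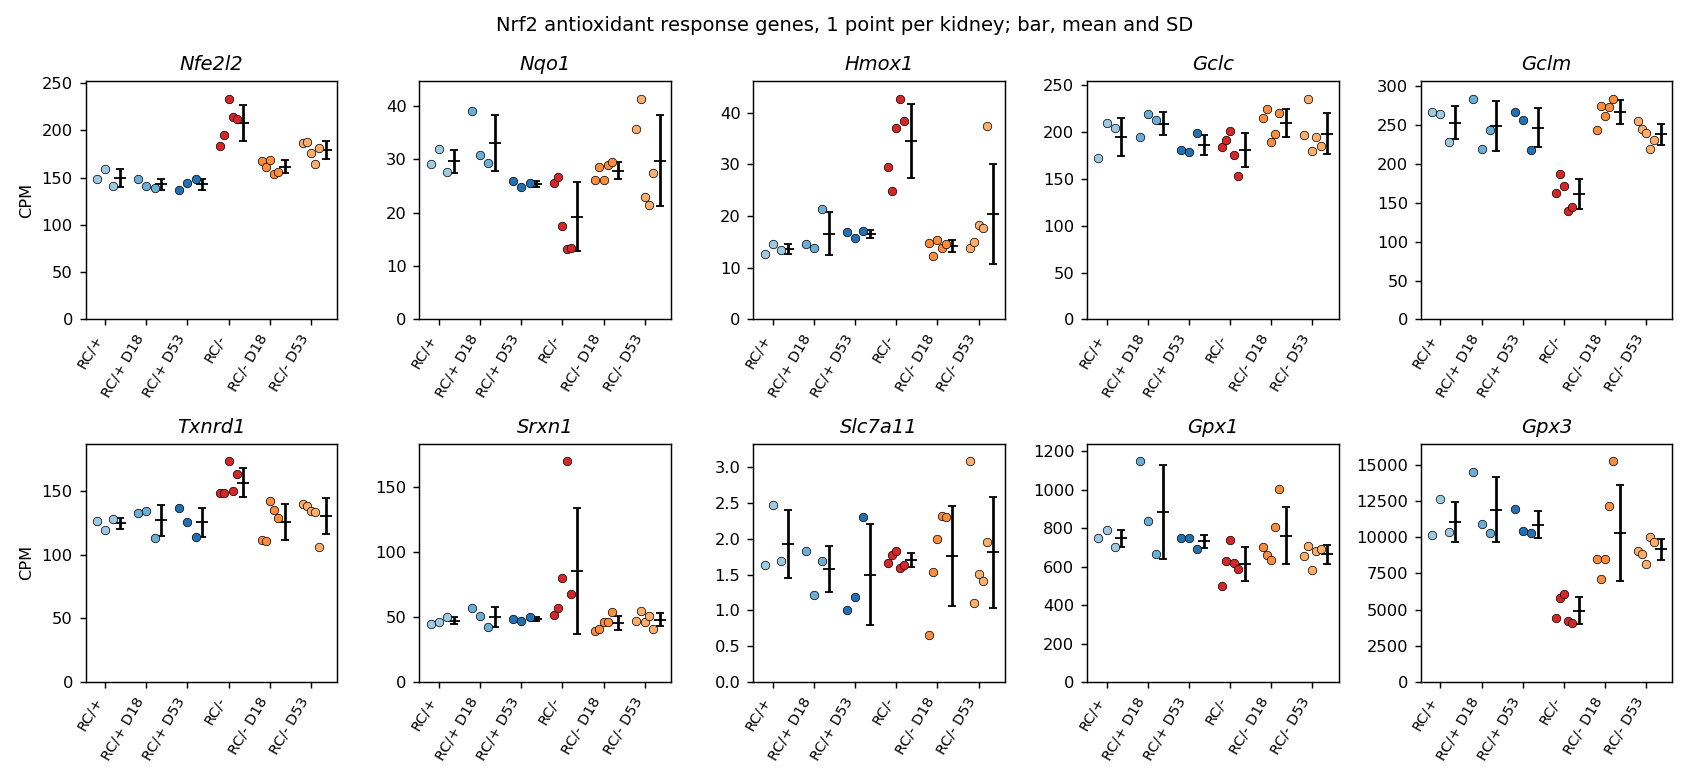
Level of each of the 10 genes in CPM (vertical axes, from 0) in the 24 kidneys, 1 point per kidney, by group, with a bar for the mean and SD. The RC/- points of Nfe2l2 sit between 183 and 234 CPM, above every noncystic kidney, those of Gpx3 sit between 4063 and 6105 CPM, below every other library, and 1 RC/- kidney stands apart in Srxn1 at 170 CPM.

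*Nfe2l2*, the factor itself, lies at 75675513 to 75704641 on the minus strand of chromosome 2 (GRCm38). Its level was 148, 160 and 141 CPM in the 3 RC/+ kidneys, and 183, 196, 234, 215 and 212 CPM in the 5 RC/- kidneys. The lowest RC/- kidney was thus above the highest RC/+ kidney. The log2 fold change was 0.47 ± 0.07 (SE), with an adjusted p of 7.43e-06 by limma, or 0.33 above the median of all genes. Under the 35 other settings and left-out libraries the change lay between 0.33 and 0.52 and passed the test each time.

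Its regulators were measured alongside. Of 14 listed genes, 6 were higher in RC/- and 0 lower, with 8 not called. Over all genes tested the shares were 25.5% higher and 12.2% lower. *Maff*, a small Maf partner, rose from 10.4 ± 3.70 CPM (SD, n = 3) to 26.3 ± 3.46 CPM (SD, n = 5), or by 1.40 ± 0.19 on the log2 scale (SE, adjusted p 2.48e-06, limma). *Nfe2l3*, a paralogue of Nrf2, rose from 5.44 ± 2.10 to 13.9 ± 5.68 CPM (1.30 ± 0.34, adjusted p 0.00393), though its call ended without RC/+ replicate 4 (0.97, adjusted p 0.0519) and without the 5 libraries with *Alb* above 5 CPM (1.09, adjusted p 0.0795). *Bach2*, a repressor of the same family of sites, went from 3.09 ± 0.542 to 4.54 ± 0.370 CPM (0.55 ± 0.19, adjusted p 0.0271) and was not called under 8 of 35 other settings, with adjusted p up to 0.187. These were the other scalings and tools (TMM, DESeq2 size factors, edgeR and DESeq2), leaving out RC/+ replicate 5 or 6 or RC/- replicate 17, and leaving out the 5 libraries with *Alb* above 5 CPM. *Keap1*, the brake on Nrf2, rose by 0.32 ± 0.07 (SE, adjusted p 5.66e-04). With TMM scaling the list stood at 4 higher and 3 lower, where 3844 of the 22570 genes were higher and 3896 lower. The kinase gene *Gsk3b* (0.39) and the ligase component *Rbx1* (0.17) complete the 6, and *Cul3*, *Bach1*, *Nfe2l1* and *Sqstm1* were among the 8 that were not called.

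*Hmox1* encodes haem oxygenase 1, which opens the haem ring and is a long known inducible target of Nrf2. It lies at 75093621 to 75100589 on the plus strand of chromosome 8. The RC/+ kidneys held 12.7, 14.7 and 13.5 CPM, and the RC/- kidneys 29.6, 24.8, 37.0, 42.7 and 38.4 CPM. Each RC/- value exceeded each RC/+ value. The log2 fold change was 1.31 ± 0.22 (SE, adjusted p 4.15e-05, limma), the largest rise among the 10. Macrophages, which break down haem, also express this gene, and the macrophage markers had a median log2 fold change of 1.63 in the same comparison. In the RC/- group the kidney with the lowest *Hmox1* was also the one with the lowest summed macrophage markers (replicate 14, 439 CPM) and the kidney with the highest was the one with the highest (replicate 16, 781 CPM). The part of macrophages in the *Hmox1* value was not tested.

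*Txnrd1*, cytosolic thioredoxin reductase and a selenoprotein, lies at 82833951 to 82897712 on the plus strand of chromosome 10. It was at 126, 119 and 128 CPM in RC/+ and at 149, 148, 173, 150 and 163 CPM in RC/- kidneys, without overlap. The log2 fold change of 0.33 ± 0.10 (SE, adjusted p 0.00888, limma) was 0.19 above the median of all genes. It was not called with TMM scaling (0.19, adjusted p 0.186), nor by edgeR (0.19, adjusted p 0.179) or DESeq2 (0.20, adjusted p 0.175).

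*Srxn1* encodes sulfiredoxin, which repairs over-oxidized peroxiredoxins, and lies at 152105516 to 152111376 on the plus strand of chromosome 2. RC/+ kidneys held 45.1, 46.6 and 50.2 CPM, and RC/- kidneys 51.5, 57.1, 80.5, 170 and 67.6 CPM. The kidney at 170 CPM was replicate 16, the library with adrenal cortex transcripts, and the other 4 averaged 64.2 ± 12.7 CPM (SD, n = 4). The log2 fold change was 0.71 ± 0.23 (SE, adjusted p 0.0159, limma), and without replicate 16 it was 0.42 (adjusted p 0.0136). Its call was lost with TMM scaling (0.57, adjusted p 0.0696), when only the groups compared were fitted (0.70, adjusted p 0.107) and without RC/+ replicate 4 (0.67, adjusted p 0.0553).

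**Figure D2:**
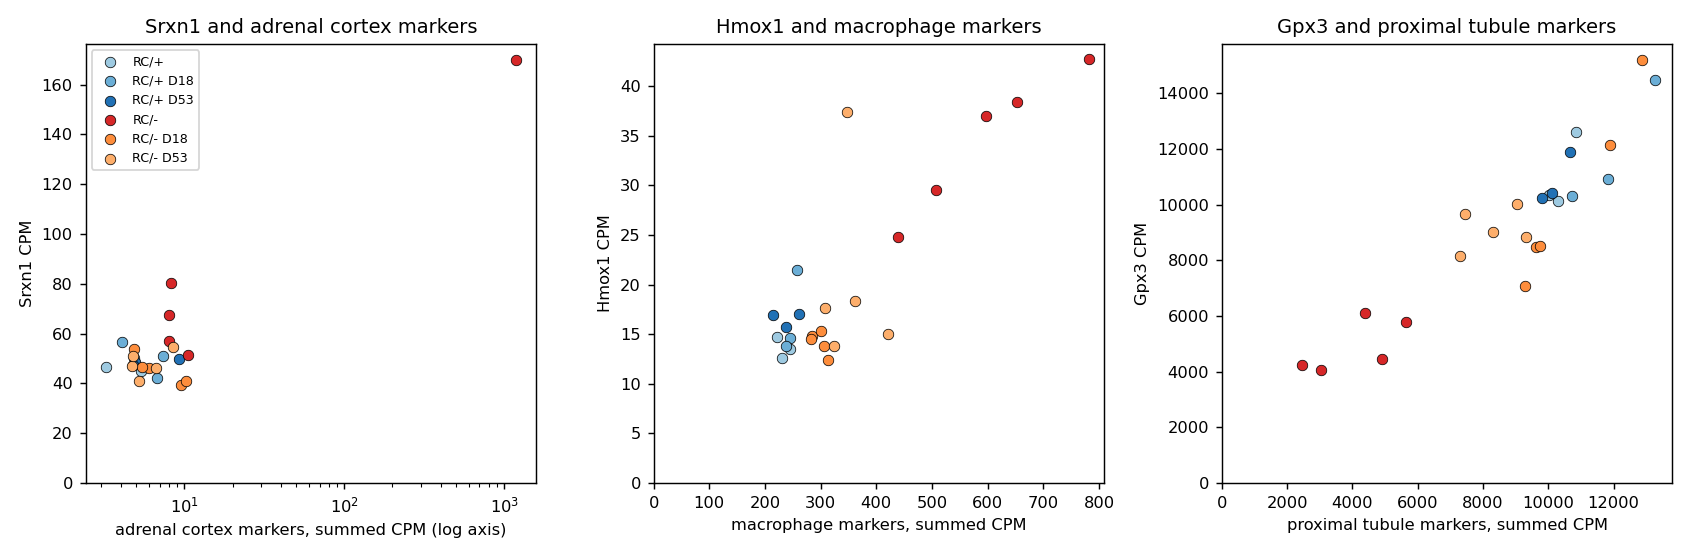
Level in CPM of Srxn1, Hmox1 and Gpx3 (vertical axes) against the summed CPM of adrenal cortex, macrophage and proximal tubule markers (horizontal axes, the left one logarithmic), 1 point per kidney, coloured by group. RC/- replicate 16 stands alone at 1183 CPM of adrenal markers and 170 CPM of Srxn1, RC/- kidneys lie at the upper end of the macrophage axis, and the same kidneys hold the lowest proximal tubule markers and the lowest Gpx3.

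Among the genes that were lower, *Gpx3* encodes the secreted, plasma form of glutathione peroxidase, which the proximal tubule supplies to the blood. It lies at 54902453 to 54910377 on the plus strand of chromosome 11. The RC/+ kidneys held 10144, 12606 and 10341 CPM, and the RC/- kidneys 4446, 5794, 6105, 4242 and 4063 CPM. No RC/- kidney reached the lowest RC/+ kidney. On the log2 scale the gene fell by 1.18 ± 0.19 (SE, adjusted p 2.68e-05, limma) and was called under all 35 other settings, with values from -1.32 to -0.88. The 11 proximal tubule markers had a median log2 fold change of -1.26, and the part of that segment in the *Gpx3* value was not tested.

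*Gclm* encodes the modifier subunit of glutamate-cysteine ligase, which sets the pace of glutathione synthesis, and *Gclc* its catalytic subunit. They lie on the plus strands of chromosome 3 (122245557 to 122270732) and chromosome 9 (77754535 to 77794485). *Gclm* was at 267, 264 and 228 CPM in RC/+ and at 162, 187, 171, 139 and 145 CPM in RC/- kidneys, every RC/- kidney being below every RC/+ kidney. It fell by 0.66 ± 0.09 on the log2 scale (SE, adjusted p 5.59e-06, limma) and passed the test under all 35 other settings. *Gclc* was at 172, 209 and 204 CPM in RC/+ and at 184, 191, 201, 175 and 153 CPM in RC/- kidneys. Those ranges overlapped, and its log2 fold change of -0.11 ± 0.09 (SE) had an adjusted p of 0.380. The 2 subunits of this enzyme thus stood apart in their calls, but the difference between the genes was not tested. Exons of *Gclm* share 244 bases with *Gm6061* on the same strand and 296 bases with *Gm17494* on the other, or 3.88% and 4.71% of its merged exon length.

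*Nqo1*, NAD(P)H quinone dehydrogenase 1, is the target most often used as a readout of Nrf2, and lies at 107388225 to 107403206 on the minus strand of chromosome 8. RC/+ kidneys held 29.1, 31.9 and 27.7 CPM. RC/- kidneys held 25.5, 26.6, 17.5, 13.3 and 13.3 CPM, so that 2 of the 5 lay just below the controls and 3 well below. The gene fell by 0.68 ± 0.20 on the log2 scale (SE, adjusted p 0.0106, limma). Without RC/+ replicate 5 the adjusted p was 0.0501, and without the 5 libraries with *Alb* above 5 CPM the change was -0.45 (adjusted p 0.110).

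*Gpx1*, the cytosolic glutathione peroxidase, and *Slc7a11*, the cystine importer of system xc-, were not called. *Gpx1* (chromosome 9, 108338903 to 108340343, plus strand) was at 703 to 789 CPM in RC/+ and at 498, 627, 739, 620 and 589 CPM in RC/- kidneys, a difference of -0.29 ± 0.14 on the log2 scale (SE, adjusted p 0.115, limma). It passed the test with TMM scaling (-0.43, adjusted p 0.0485) and by DESeq2 (-0.41, adjusted p 0.0476). *Slc7a11* (chromosome 3, 49892526 to 50443614, minus strand) was at 1.63, 2.48 and 1.69 CPM in RC/+ and between 1.60 and 1.83 CPM in RC/- kidneys, the log2 difference being -0.15 ± 0.34 (SE, adjusted p 0.765). Its counts ran from 15 to 95 reads a library, and 373 bases of its longest transcript model were over 95% identical to alpha tubulin transcripts such as *Tuba1b* (96.2%), so this value is uncertain.

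Per kilobase of merged exon, the members spanned a wide range in RC/+ kidneys. *Gpx3* stood highest at 6084 ± 754 CPM per kb and *Gpx1* next at 519 ± 29.7 CPM per kb (SD, n = 3). *Gclc* (51.8 ± 5.38), *Gclm* (40.3 ± 3.44) and *Nfe2l2* (39.4 ± 2.48 CPM per kb) followed, the last 2 differing by less than their spread. *Nqo1* (19.04 ± 1.40), *Txnrd1* (17.6 ± 0.641) and *Srxn1* (16.8 ± 0.937 CPM per kb) followed, each overlapping with the next. *Hmox1* was at 7.77 ± 0.582 CPM per kb, and *Slc7a11* lowest at 0.139 ± 0.0340 CPM per kb. In RC/- kidneys *Gpx3* was still highest (2719 ± 522 CPM per kb, n = 5). The mean of *Hmox1* at 19.7 ± 4.12 CPM per kb stood above that of *Nqo1* at 12.4 ± 4.17 CPM per kb, the reverse of their order in RC/+. Their RC/- values overlapped (14.2 to 24.4 against 8.54 to 17.2 CPM per kb).

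The effect of removing the miR-17 motif was read in cystic kidneys. The paper reports that this removal relieves *Pkd1* repression, which was not tested here. In RC/- D18 kidneys 4 members were higher than in RC/- kidneys (*Nqo1*, *Gclc*, *Gclm*, *Gpx3*) and 4 were lower (*Nfe2l2*, *Hmox1*, *Txnrd1*, *Srxn1*), while 14.3% of all genes were called higher and 26.9% lower. In RC/- D53 kidneys 3 were higher (*Nqo1*, *Gclm*, *Gpx3*) and 4 lower (the same 4 as in D18), against 11.3% and 18.9% of all genes. Both comparisons use the same 5 RC/- libraries, which also stand in the comparison with RC/+, so the opposite signs in the 3 comparisons are not independent. The median of all genes was -0.10 for D18 and -0.08 for D53, and with TMM scaling the share of calls that were higher went from 34.8% to 50.2% and from 37.4% to 53.2%. All RC/- D53 libraries are among libraries 20 to 27, so the edit in D53 and that set cannot be told apart. Only RC/- D18 has libraries both inside and outside the set. A covariate for it is therefore estimated from RC/- D18 replicates 18 and 19 against 20 to 22 alone. With that set as a covariate 7 members were called for D18 and 2 for D53, while calls over all genes went from 41.2% to 27.5% for D18 and from 30.2% to 7.96% for D53.

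**Figure D3:**
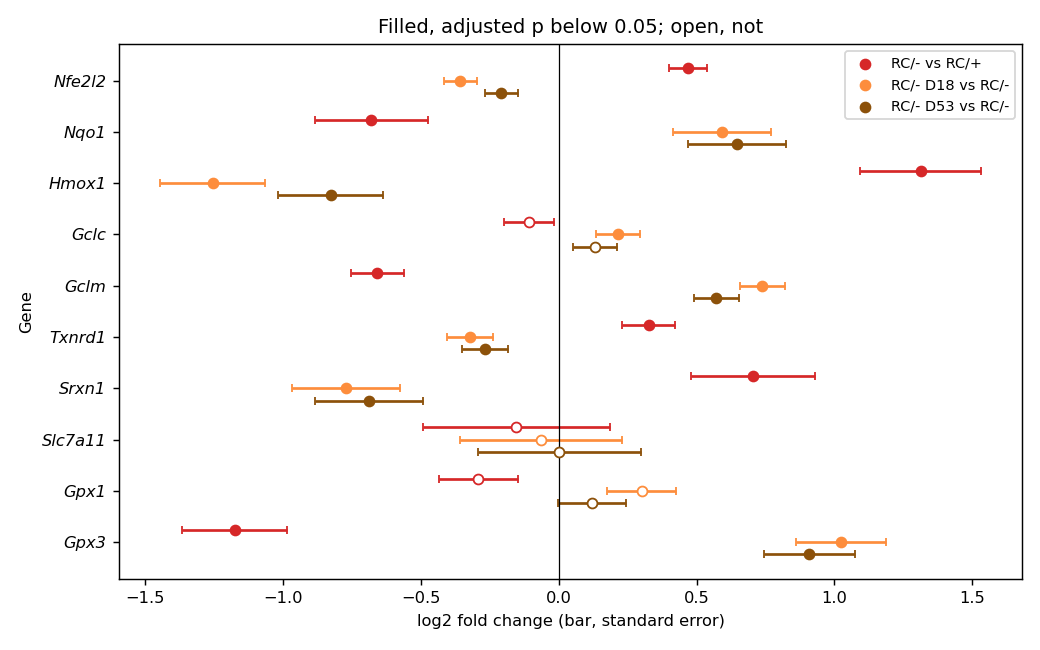
Log2 fold change of each of the 10 genes (horizontal axis, bars are standard errors) in RC/- against RC/+ and in each edited RC/- line against RC/-. Filled points passed an adjusted p below 0.05 and open points did not. The 4 genes to the right of 0 in RC/- against RC/+ lie to the left in both edited lines, and the 3 comparisons share the RC/- libraries.

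For *Nfe2l2* the RC/- D18 kidneys held 168, 162, 169, 154 and 156 CPM, all below the lowest RC/- kidney (183 CPM) and all above the highest RC/+ D18 kidney (149 CPM). It fell by 0.36 ± 0.06 on the log2 scale against RC/- (SE, adjusted p 3.27e-05, limma). The RC/- D53 kidneys, at 187, 188, 176, 165 and 182 CPM, overlapped with RC/-. There the gene fell by 0.21 ± 0.06 (SE, adjusted p 0.00966), a call lost with TMM scaling (-0.12, adjusted p 0.197) and with libraries 20 to 27 as a covariate (-0.16, adjusted p 0.401). The order of group means was RC/- (208 CPM), RC/- D53 (179 CPM), RC/- D18 (162 CPM) and then the 3 noncystic groups at 143 to 150 CPM, whose values overlapped.

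*Hmox1* was at 14.9, 12.4, 15.3, 13.8 and 14.6 CPM in RC/- D18 kidneys, below every RC/- kidney and overlapping with the 3 noncystic groups (12.7 to 21.5 CPM). Its log2 fold change against RC/- was -1.26 ± 0.19 (SE, adjusted p 1.00e-05, limma). The RC/- D53 kidneys held 13.8, 15.02, 18.3, 17.6 and 37.4 CPM, the last of them, replicate 27, lying among the RC/- values. The fold change for D53 was -0.83 ± 0.19 (SE, adjusted p 0.00171), and without replicate 27 it was -1.07 (adjusted p 4.30e-06). Macrophage markers summed to 347 CPM in that kidney and to 309 to 422 CPM in the other D53 kidneys, and the injured tubule markers to 85.1 CPM against 36.9 to 55.5 CPM. The part of either in its *Hmox1* value was not tested. With libraries 20 to 27 as a covariate the *Hmox1* call for D53 was lost (-0.93, adjusted p 0.0977).

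*Gpx3* in RC/- D18 kidneys was at 8470, 7077, 8507, 12146 and 15218 CPM, and in RC/- D53 kidneys at 9009, 8857, 8172, 10023 and 9670 CPM. Every edited kidney exceeded the highest RC/- kidney at 6105 CPM. The log2 fold changes were 1.02 ± 0.16 for D18 (SE, adjusted p 2.10e-05, limma) and 0.91 ± 0.16 for D53 (SE, adjusted p 1.61e-04). For D53 the value was 0.32 (adjusted p 0.504) with libraries 20 to 27 as a covariate and 0.64 (adjusted p 0.0599) without the 5 libraries with *Alb* above 5 CPM. Proximal tubule markers moved the same way, 11 of 11 being higher in each edited line than in RC/-, with summed levels of 9285 to 12882 CPM in D18 and 7300 to 9302 CPM in D53.

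*Gclm* was at 244, 274, 261, 274 and 284 CPM in RC/- D18 and at 256, 245, 240, 220 and 230 CPM in RC/- D53 kidneys, with no overlap with RC/- in either line. It rose by 0.74 ± 0.08 (adjusted p 1.22e-07) and 0.57 ± 0.08 (adjusted p 9.49e-06) on the log2 scale (SE, limma), and was called under all 35 other settings in both. *Gclc*, whose D18 range was 190 to 224 CPM, changed by 0.22 ± 0.08 (SE, adjusted p 0.0321) in D18, and that call ended without RC/- replicate 16 (adjusted p 0.0610), without RC/- replicate 17 (0.16, adjusted p 0.118), without RC/- D18 replicates 18, 19 or 22 (adjusted p 0.0614, 0.0774 and 0.0743) and without the 5 libraries with *Alb* above 5 CPM (0.09, adjusted p 0.490). In D53 it ranged from 179 to 236 CPM and was not called.

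*Nqo1* in RC/- D18 kidneys ranged from 26.1 to 29.5 CPM, and overlapped with the highest RC/- kidney (26.6 CPM). RC/- D53 kidneys were spread more widely, at 35.6, 41.3, 22.98, 21.4 and 27.5 CPM. The log2 fold changes against RC/- were 0.59 in D18 (SE 0.18, adjusted p 0.00916, limma) and 0.65 in D53 (SE 0.18, adjusted p 0.00715). Both calls ended with libraries 20 to 27 as a covariate (adjusted p 0.0809 and 0.274) and without the 5 libraries with *Alb* above 5 CPM (0.36 with adjusted p 0.161, and 0.55 with adjusted p 0.0730).

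*Srxn1* lay between 39.5 and 53.7 CPM in RC/- D18 and between 40.9 and 54.6 CPM in RC/- D53 kidneys, overlapping with the lowest RC/- kidney in both. Its log2 fold changes were -0.77 in D18 (SE 0.20, adjusted p 0.00258, limma) and -0.69 in D53 (SE 0.20, adjusted p 0.00902), while without RC/- replicate 16 they became -0.49 (adjusted p 0.00154) and -0.40 (adjusted p 0.00987). The D53 call was lost when only its own groups were fitted (adjusted p 0.0549), with libraries 20 to 27 as a covariate (-0.97, adjusted p 0.0852) and without the 5 libraries with *Alb* above 5 CPM (-0.41, adjusted p 0.0511). *Txnrd1* lay between 111 and 142 CPM in RC/- D18 and between 106 and 140 CPM in RC/- D53 kidneys, below every RC/- kidney. Its changes of -0.32 in D18 (SE 0.08, adjusted p 0.00293) and -0.27 in D53 (SE 0.08, adjusted p 0.0159) were not called with TMM scaling (-0.21, adjusted p 0.0790, and -0.18, adjusted p 0.154). For D53 the *Txnrd1* call was also lost without RC/- replicate 15 (adjusted p 0.0513) and without RC/- D53 replicate 27 (adjusted p 0.0575). Within RC/- D18, replicates 18 and 19 held less of both genes (39.5 and 40.9 CPM of *Srxn1*, 111 CPM of *Txnrd1* in each) than replicates 20 to 22 (46.4 to 53.7 and 128 to 142 CPM), which are the ones with skeletal muscle transcripts. The same replicates were split without overlap for *Gpx3* (7077 and 8470 CPM against 8507 to 15218 CPM) and *Slc7a11* (0.657 and 1.53 CPM against 2.00 to 2.31 CPM). They overlapped for *Nfe2l2*, *Nqo1*, *Hmox1*, *Gclc*, *Gclm* and *Gpx1*. The share of all genes split in this way was not counted, so nothing particular to the members is read from it.

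*Gpx1* ranged from 637 to 1003 CPM in RC/- D18 and differed from RC/- by 0.30 ± 0.12 on the log2 scale (SE, adjusted p 0.0556, limma). It was called under 11 of 35 other settings, among them TMM scaling (0.42, adjusted p 0.0245), edgeR (0.43, adjusted p 0.0221) and DESeq2 (0.43, adjusted p 0.0137). In RC/- D53 it ranged from 583 to 710 CPM and was not called. *Slc7a11* ranged from 0.657 to 2.31 CPM in RC/- D18 and from 1.10 to 3.08 CPM in RC/- D53, on either side of the RC/- range.

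Within each edited line the cystic and noncystic kidneys were closer. Between RC/- D18 and RC/+ D18, 0 of 10 members were called by limma, edgeR or DESeq2, against 0.266% of all genes by limma. At an unadjusted p below 0.05 there was 1, *Nfe2l2*, and 8.91% of all genes. Its groups did not overlap (154 to 169 CPM against 139 to 149 CPM), as was so for 5.76% of all genes. Between RC/- D53 and RC/+ D53, 1 member was called where 2.6% of all genes were. This was again *Nfe2l2*, at 165 to 188 CPM against 137 to 149 CPM, 0.33 ± 0.07 higher on the log2 scale (SE, adjusted p 0.00752, limma). The call held with TMM scaling (0.29, adjusted p 0.0421) but not with DESeq2 size factors (0.28, adjusted p 0.0578), with libraries 20 to 27 as a covariate (0.37, adjusted p 0.100) or without RC/+ D53 replicate 10 (0.29, adjusted p 0.0656). *Gpx3* did not overlap in this line either, at 8172 to 10023 CPM against 10246 to 11901 CPM, but had an adjusted p of 0.647, and 11.6% of all genes did not overlap there.

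In noncystic kidneys the motif deletion gave 0 of 10 calls in D18, where 0.00443% of all genes were called, and 0 of 10 in D53, where 0% were, with 0 members at an unadjusted p below 0.05 in either (4.49% and 2.33% of all genes) and 0 called by edgeR or DESeq2. Between RC/- D53 and RC/- D18, 0 of 10 members were called by any of the 3 tools, against 0.266% of all genes by limma. An unadjusted p below 0.05 by limma was found for 2 of the 10, *Nfe2l2* and *Hmox1*, with adjusted p of 0.292 and 0.332, and for 13.3% of all genes.

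Whether the cystic difference changed with the motif deletion was tested directly, as the difference between the RC/- and RC/+ contrast in an edited line and that in the unedited line. The unedited contrast enters this difference with its sign reversed, so opposite signs of the 2 are not independent. For D18, 4 members were called where 17.1% of all genes were. The difference was negative for *Hmox1* (-1.52 ± 0.31, adjusted p 0.00147) and *Nfe2l2* (-0.29 ± 0.10, adjusted p 0.0405), which were higher in unedited RC/- kidneys. It was positive for *Gclm* (0.77 ± 0.13, adjusted p 3.24e-04) and *Gpx3* (0.92 ± 0.27, adjusted p 0.0189), which were lower there, all as log2 values with SE by limma. For D53, 3 were called where 11.3% of all genes were, namely *Hmox1* (-1.11 ± 0.31, adjusted p 0.0216), *Gclm* (0.61 ± 0.13, adjusted p 0.00429) and *Gpx3* (0.93 ± 0.27, adjusted p 0.0266). The *Nfe2l2* value for D18 lost its call under 17 of 35 other settings, among them TMM scaling (-0.19, adjusted p 0.261), and 10 of those were single left-out libraries (RC/+ 4 and 6, RC/+ D18 7 to 9, RC/- 15 to 17 and RC/- D18 21 and 22, adjusted p 0.0582 to 0.120). The *Gpx3* value for D18 lost its call without RC/+ replicate 5 or RC/+ D18 replicates 8 or 9 (adjusted p 0.0510 to 0.0673) and, also when the covariate for libraries 20 to 27 entered the fit (0.57, adjusted p 0.196) and when the 5 libraries with *Alb* above 5 CPM were dropped (0.63, adjusted p 0.177). For D53 none of the 3 calls was kept with that covariate, *Hmox1* lost its call without RC/+ replicate 4 or RC/+ D53 replicate 12 (adjusted p 0.0528 and 0.0514) and *Gpx3* without RC/+ replicate 5 or RC/+ D53 replicates 11 or 12 (adjusted p 0.0878, 0.0630 and 0.0670). *Nqo1*, *Srxn1* and *Txnrd1* were not called in either line.

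The wider antioxidant system in RC/- against RC/+ kidneys was described by 7 lists. In this comparison 25.5% of all genes were called higher and 12.2% lower. Glutathione making and recycling stood at 1 gene higher, 5 lower and 5 not called of 11 (median log2 fold change -0.47, against 0.14 for all genes). *Ggt1*, the gamma-glutamyl transferase of the proximal tubule brush border, fell by 1.19 ± 0.12 (SE, adjusted p 3.21e-08) from 528 ± 21.1 to 235 ± 50.6 CPM. *Dpep1*, the dipeptidase that acts after it, fell by 1.24 ± 0.15 (SE, adjusted p 5.78e-07), and *Chac2*, a glutathione-degrading enzyme, by 0.67 ± 0.12 (SE, adjusted p 9.79e-05). Glutathione synthetase *Gss* and the *Slc7a11* partner *Slc3a2* were also lower (-0.58 and -0.53). *Oplah*, which returns 5-oxoproline to glutamate, rose by 0.57 ± 0.08 (SE, adjusted p 3.55e-06). With TMM scaling this list stood at 1 higher and 9 lower, where 3844 of the 22570 genes were higher and 3896 lower.

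Peroxide and superoxide removal stood at 2 higher, 9 lower and 9 not called of 20 (median -0.13), against 25.5% higher and 12.2% lower over all genes. Extracellular superoxide dismutase *Sod3* fell by 1.07 ± 0.12 (SE, adjusted p 1.19e-07), catalase *Cat* by 0.83 ± 0.13 (SE, adjusted p 1.21e-05) and methionine sulfoxide reductase *Msra* by 0.76 ± 0.11 (SE, adjusted p 9.08e-06). The 2 that rose were *Gpx7* (1.07 ± 0.23, adjusted p 5.90e-04) and *Gpx8* (0.81 ± 0.14, adjusted p 4.87e-05), glutathione peroxidases of the endoplasmic reticulum. With TMM scaling 2 were higher and 11 lower, where 3844 of the 22570 genes were higher and 3896 lower.

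Detoxification targets went both ways, 6 higher, 4 lower and 8 not called of 18 (median 0.23), a split that was the same with TMM scaling. The shares over all genes were 25.5% higher and 12.2% lower with total-count scaling. With TMM scaling 3844 of the 22570 genes were higher and 3896 lower. *Akr1b8*, an aldo-keto reductase, rose from 6.93 ± 2.36 to 28.3 ± 4.96 CPM (2.06 ± 0.34, adjusted p 3.72e-05). The glutathione transferase gene *Gstm2* (1.20 ± 0.12, adjusted p 4.75e-08) and the efflux pump gene *Abcc4* (0.94 ± 0.20, adjusted p 4.88e-04) also rose. *Gsta2*, another transferase gene (-1.25 ± 0.24, adjusted p 1.92e-04), carbonyl reductase *Cbr1* (-1.24 ± 0.13, adjusted p 6.48e-08) and the apical pump gene *Abcc2* (-1.07 ± 0.22, adjusted p 4.15e-04) fell.

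Of the 6 NADPH supply genes, 3 were higher and 2 lower, where 25.5% and 12.2% of all genes were. The rises were in the pentose phosphate pathway, with *Pgd* (0.53 ± 0.08, adjusted p 4.88e-06), *G6pdx* (0.43 ± 0.10, adjusted p 0.00178) and *Tkt* (0.19 ± 0.06, adjusted p 0.0172), the last of which was not called with TMM scaling (0.05, adjusted p 0.640) or without RC/+ replicate 5 (0.15, adjusted p 0.108). *Me1* (-0.63 ± 0.21, adjusted p 0.0195) and *Idh1* (-0.61 ± 0.18, adjusted p 0.0101) fell. Their calls were lost without RC/+ replicate 4 (adjusted p 0.0550 and 0.0546) or 5 (0.0690 and 0.0550), and that of *Me1* also without RC/- replicate 15 (0.0552) or 17 (0.0607). Without the 5 libraries with *Alb* above 5 CPM neither was called (adjusted p 0.0598 for *Me1* and 0.137 for *Idh1*). Haem and iron handling had 0 higher, 4 lower and 5 not called of 9, with *Tfrc*, the transferrin receptor gene (-0.52 ± 0.15, adjusted p 0.00709), ferritin heavy chain *Fth1* (-0.43 ± 0.13, adjusted p 0.0102) and ferrochelatase *Fech* (-0.40 ± 0.07, adjusted p 4.64e-05) among the 4. The *Tfrc* call ended without RC/+ replicate 6 (-0.32, adjusted p 0.114), and those of *Tfrc* and *Fth1* ended without the 5 libraries with *Alb* above 5 CPM (adjusted p 0.0634 and 0.128). With TMM scaling 7 of the haem and iron list were lower, where 3896 of the 22570 genes were.

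NADPH oxidases, which make superoxide, had 5 higher, 2 lower and 3 not called of 10 (median 0.86), against 25.5% higher and 12.2% lower over all genes. Among those that rose were *Cybb*, *Ncf1*, *Ncf4* and *Rac2*, parts of the phagocyte enzyme, while *Cyba*, another part of it, fell. *Ncf4* rose by 1.77 ± 0.28 (SE, adjusted p 2.08e-05) from 1.37 to 4.99 CPM, *Rac2* by 1.39 ± 0.21 (SE, adjusted p 9.26e-06) and *Ncf1* by 1.35 ± 0.21 (SE, adjusted p 1.73e-05). These rises, unlike the fall of *Cyba*, went the same way as the macrophage markers, 8 of 8 of which were higher. The part of macrophages was not tested. *Nox4*, the oxidase of the tubule, fell by 1.33 ± 0.21 (SE, adjusted p 2.01e-05) from 319 ± 78.3 to 126 ± 22.7 CPM, and *Cyba* by 0.55 ± 0.10 (SE, adjusted p 6.83e-05).

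**Figure D4:**
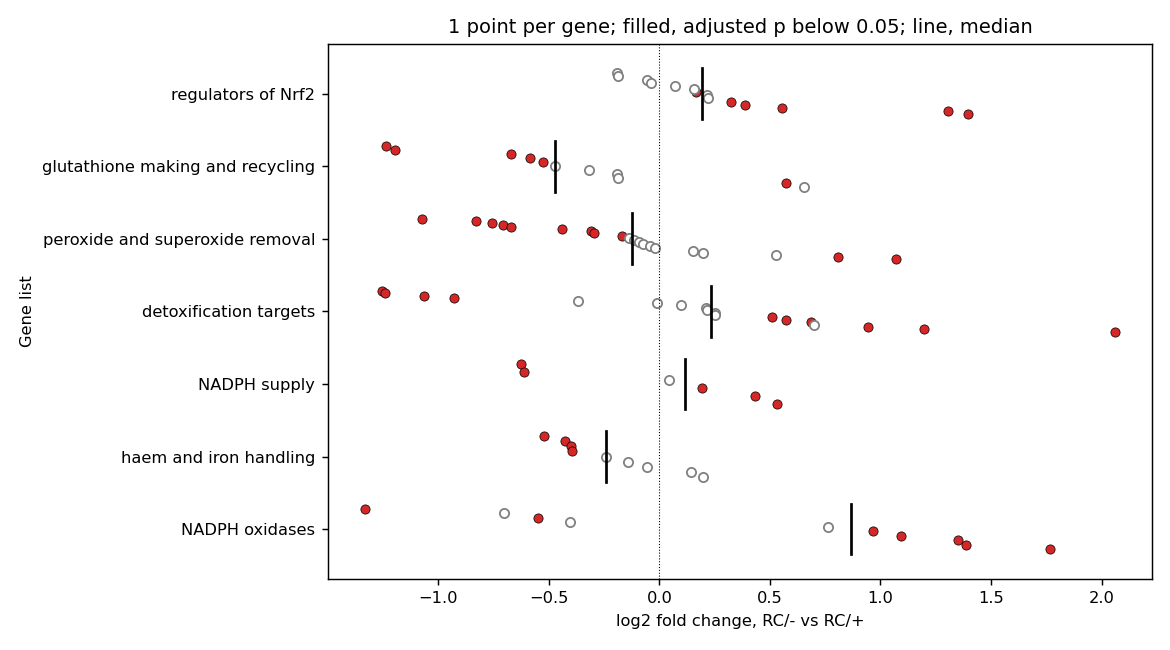
Log2 fold change in RC/- against RC/+ kidneys (horizontal axis) for every tested gene of the 7 lists around Nrf2, 1 point per gene, filled where the adjusted p is below 0.05, with a line at each list's median. The glutathione list has its median at -0.47 and the NADPH oxidase list at 0.86, and the detoxification list reaches from -1.25 to 2.06.

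In the edited lines the same lists were set against RC/-, where 14.3% of all genes were higher and 26.9% lower for D18, and 11.3% higher and 18.9% lower for D53, the D53 calls being those without libraries 20 to 27 as a covariate. Glutathione making and recycling had 7 of 11 genes higher and 1 lower in RC/- D18, and 5 higher and 2 lower in RC/- D53. Peroxide and superoxide removal had 8 higher in each, with 4 lower in D18 and 2 lower in D53. Of the regulators, 6 were lower and 2 higher in D18, and 4 lower and 0 higher in D53. *Maff* was at 8.99 ± 1.80 CPM in D18 and 10.3 ± 1.58 CPM in D53 (SD, n = 5), with log2 fold changes of -1.55 in D18 (SE 0.16, adjusted p 5.96e-08) and -1.35 in D53 (SE 0.16, adjusted p 1.10e-06). *Ggt1* was at 512 ± 34.8 and 444 ± 36.7 CPM (SD, n = 5), with changes of 1.15 in D18 (SE 0.10, adjusted p 6.56e-09) and 0.94 in D53 (SE 0.10, adjusted p 3.62e-07). *Akr1b8* was at 8.95 ± 3.79 and 8.64 ± 4.70 CPM (SD, n = 5), with changes of -1.74 in D18 (SE 0.30, adjusted p 4.14e-05) and -1.81 in D53 (SE 0.30, adjusted p 5.08e-05). Both lines were compared with the same RC/- libraries.

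The genes whose pattern over the 24 libraries was most like each member were found by the smallest root mean square difference of centred log2 CPM among the 22570 genes, given as a description. For *Nfe2l2* they were *Anxa4* and *Oat* (0.08 for each, where *Nfe2l2* itself varied by 0.21). *Gclm* was most like *Gss* (0.10), the next enzyme of glutathione synthesis, and *Nceh1* (0.10). *Gpx3* was most like *Glyat* (0.13), against its own spread of 0.51. For *Hmox1* the nearest were *Eif4ebp1* and *Phlda3* (0.24 for each, own spread 0.55), and for *Nqo1* they were *Bdh1* (0.17) and *Isyna1* (0.18, own spread 0.39). *Gpx1* was nearest to the ferritin gene *Fth1* (0.12) and to *Grina* (0.13), *Txnrd1* to *Pip4k2c* (0.07) and *Ablim1* (0.09), and *Gclc* to *Cdk8* (0.09) and *Araf* (0.10). *Srxn1* was nearest to *Gch1* (0.23) and *Tmem35a* (0.24), and *Slc7a11* to *Olig1* (0.22) and *Bcan* (0.26), at low counts. All points share the libraries and their depth.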

How the data were processed

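RNA was extracted from flash-frozen right kidneys (miRNeasy) and sequenced as 1 library per mouse. The authors trimmed reads with Trim Galore 0.6.3, aligned them to GRCm38 with STAR 2.5.3a and deposited the whole-number gene counts that STAR gives, 1 column for each of 24 libraries (20.4 to 30.8 M counts). The strand setting is not given in the sources used here, so antisense overlaps cannot be told apart. Samples were grouped by the submitters' titles. The 10 members and the lists around them were chosen with earlier results of these data known.

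Counts were scaled to log2 CPM by total count (prior count 2), genes with a mean of at least -3 were kept (22570 of 54532), and all 24 libraries were fitted with 6 group means by limma-trend (limma 3.58.1, R 4.3.3), two-sided, with Benjamini-Hochberg adjustment over all genes in each of 10 comparisons. The script was tested on simulated data. Genes without a symbol held at most 0.0261% of a library. Alternatives were TMM and DESeq2 size factors, edgeR 4.0.16 quasi-likelihood, DESeq2 1.42.0, other filters, a prior count of 0.5, fewer groups, covariates for sex (read from the counts) and libraries 20 to 27, and leaving out each library. The named genes are the 10 members, the 3 largest rises and 3 largest falls per list among those called in RC/- against RC/+, and the 2 genes most like each member (some genes are not reported here), while *Keap1*, *Gsk3b*, *Rbx1*, *Gss*, *Slc3a2* and *Cybb* and the uncalled regulators were named after their values were seen. Counts of the 39 within-group pairs differed beyond sampling noise (chi-square over its degrees of freedom, 8.45 to 48.2). Each library is 1 mouse, and p-values weigh group differences against the spread between mice within groups. Each edited line descends from 1 founder, so differences between founders are not part of that spread. Gene positions are from GENCODE M21 (GRCm38), which held 54495 of the 54532 identifiers, transcripts were compared with BLAST 2.17.0, and promoters are from RefSeq.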

Additional observations from a re-analysis of the deposited data

Results flagged for a closer look

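In 30 groups of 5 kidneys (10 genes in 3 groups), 3 held a kidney far from the others by Dixon's test at the 95% level, where chance gives about 1 in 20. *Srxn1* stood at 170 CPM in RC/- replicate 16, the library with adrenal cortex transcripts, against 51.5 to 80.5 CPM in the other 4. *Hmox1* stood at 37.4 CPM in RC/- D53 replicate 27 against 13.8 to 18.3 CPM in the other 4. *Txnrd1* stood at 106 CPM in the same kidney, below 133 to 140 CPM in the other 4. That kidney also had the highest summed injured tubule markers of its group (85.1 CPM, the other 4 at 36.9 to 55.5 CPM) and *Alb* above 5 CPM, and their part in these values was not tested.

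The cystic difference (RC/- against RC/+) differed between an edited and the unedited line for 7 values by the interaction term in limma. For D18, where 17.1% of all genes were called, the log2 differences were -0.29 for *Nfe2l2*, -1.52 for *Hmox1*, 0.77 for *Gclm* and 0.92 for *Gpx3*. For D53 they were -1.11 for *Hmox1*, 0.61 for *Gclm* and 0.93 for *Gpx3*.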

How the results depend on the processing

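Counts of called members kept within 1.5 times of 7 in RC/- against RC/+ (6 to 7 when 1 library was left out) and of 8 in RC/- D18 against RC/- (7 to 9). Of all genes 37.6% and 41.2% were called in these comparisons. For RC/- D53 against RC/- the count of 7 (30.2% of all genes called) became 2 with libraries 20 to 27 as a covariate (7.96%) and 3 without the 5 libraries with *Alb* above 5 CPM (17.2%), an alternative chosen after seeing the data, and was 6 to 7 when 1 library was left out. For RC/- D53 against RC/+ D53 the count of 1 (2.6% of all genes called) became 0 with DESeq2 size factors (2.25%) and 0 with that covariate (1.27%), and was 0 to 1 with 1 library left out. The interaction for D18 went from 4 (17.1% of all genes) to 2 when only its own groups were fitted (14.9%), and was 2 to 5 with 1 library left out. That for D53 went from 3 (11.3% of all genes) to 0 with the covariate (1.79%) and to 1 without the 5 libraries (7.28%), and was 1 to 4 with 1 left out. Libraries 20 to 27 hold every RC/- D53 kidney, the covariate is estimated within RC/- D18 alone, and the cause was not tested. *Gclc* in RC/- against RC/+ changed sign without the 5 libraries (0.0119), as *Slc7a11* did without RC/+ replicate 5, its range with 1 library left out being -0.26 to 0.0316, and neither was called. Of 2275 recomputed values of 65 gene results, 2151 kept their direction and side of the threshold, 109 lost a call, 13 gained one and 2 changed sign. Comparing RC/- D53 with RC/- D18 within libraries 20 to 27 alone, also chosen after seeing the data, gave 0 called members. No paired analysis was made, because the replicate numbers are running library numbers and the sample titles name no litter. Depth limits *Slc7a11*, at 15 to 95 reads a library.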
